A study of Homo sapiens with 9 samples.

Results

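Replacement histone variants are histones that can be built into chromatin outside DNA replication, and their genes make polyadenylated mRNAs. The genes described here are H3-3A and H3-3B (histone H3.3), H2AZ1 and H2AZ2 (histone H2A.Z), H2AX, the linker histone gene H1-10 and MACROH2A1. They were chosen by gene symbol, through the RefSeq identifiers of the table's rows, and all 7 were found among 26869 entries (genes, and identifiers that matched no gene). SLAM-Seq libraries were made from the human mammary epithelial line MCF10A, which is not transformed and in which JUN had been knocked out and replaced by a JUN-AID fusion together with TIR1. AID is a degron, and in the presence of TIR1 the auxin indole-3-acetic acid (IAA) leads to degradation of the fusion protein. There were 3 groups with 3 replicates each. Cells labelled DMSO 4sU were kept in DMSO, and cells labelled IAA 4sU in 100 µM IAA, and after 1 h the nucleoside 4-thiouridine (4sU) was added to both at 100 µM for 1 h. The control labelled no 4sU Ctrl received none. JUN knockout cells had been isolated as single-cell clones, and how many clones entered these libraries is not given in the sources used here. The study describes its replicates as biological, and the labels do not state whether the control received DMSO. The 3 IAA columns held identical values in every row and were counted as 1 library, and for this reason no test was made for IAA.

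During S phase, most histones come from clustered replication-dependent genes, whose mRNAs end in a conserved stem-loop instead of a poly(A) tail. Variant histones are made throughout the cell cycle and replace these histones at particular sites. H3.3 is deposited by the chaperones HIRA and DAXX-ATRX, and its genes H3-3A and H3-3B encode the same protein. H2A.Z marks promoters and enhancers and is exchanged into nucleosomes by the SRCAP and EP400 complexes. H2AX is phosphorylated around DNA double-strand breaks, MACROH2A1 carries a large macro domain and is known from silent chromatin, and H1-10 is a linker histone that binds between nucleosomes.

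SLAM-Seq reads RNA made during the 4sU pulse. After alkylation with iodoacetamide, the incorporated 4sU is read as C in place of T, so that the T>C conversion rate (converted T among all T covered, given here in percent) follows how much of an mRNA is new. The libraries were primed at poly(A) and counted in the 3′ interval of each RefSeq transcript, and levels are given as CPM, the usual unit in which reads are scaled to a common library size. Library totals recovered from the CPM were between 18997637 and 24014195 reads. The median conversion rate over the 7364 genes tested was between 0.0576% and 0.0599% in the libraries without 4sU, 0.241%, 0.184% and 0.182% in DMSO replicates 1, 2 and 3, and 0.223% in the IAA library. All 8 of the mammary epithelial markers (such as KRT5, KRT14 and TP63) were at 1 CPM or more in every library, with sums from 1013 to 1353 CPM, whereas the summed markers of fibroblasts, blood, endothelium and fat were at most 9.92, 4.19, 1.08 and 0.105 CPM.

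Because the libraries start from poly(A), the 3′ ends of these genes are shown first. They were read from GENCODE transcripts on GRCh37, the same assembly as hg19, which the submitters' processing notes name. For H3-3B, H2AX, H1-10 and MACROH2A1 the counted intervals of 2164, 1091, 493 and 598 bases were slightly longer than the annotated 3′ UTRs of 2161, 1089, 490 and 595 bases. The interval of H2AZ1 had 378 bases against 374, and that of H3-3A was shorter, with 526 bases against 540. For H2AZ2, an interval of 946 bases stood against an annotated 3′ UTR of 2523 bases. The last 60 bases of each transcript except that of H2AZ2 were searched, on the transcribed strand, for the poly(A) signal AATAAA. Where it was missing, its common variant ATTAAA was searched. The match nearest to the 3′ end is in capitals, and H3-3A holds another ATTAAA upstream of it in the printed window:
H3-3B (chr17:73772517-73772546, minus strand): ggatgagactaaAATAAAatttttgaagtt
H2AZ1 (chr4:100869247-100869276, minus strand): gtggataagttcAATAAAggtcatatccca
H1-10 (chr3:129033618-129033647, minus strand): ttttttgggcacAATAAAgcgtttaaacct
H3-3A (chr1:226259681-226259710, plus strand): ctattaaaatacATTAAActatacctgctt
H2AX (chr11:118964591-118964620, minus strand): tggactaattttATTAAAggattgtttttt

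For comparison, 50.5% of 63776 protein-coding transcripts held AATAAA in their last 60 bases and a further 11.9% held ATTAAA alone. Neither hexamer was found in this window of MACROH2A1, or in the same window of H2AZ2 where its shorter interval ends. The replication-dependent stem-loop was searched in the first 100 bases after the stop codon, where 0.109% of 67598 transcripts hold it. The pattern searched was widened after the H2AX and H4C3 sequences had been seen. Among the genes described here it was found in H2AX alone, which thus carries both a stem-loop and, further downstream, a poly(A) signal. It is shown in capitals with that of H4C3, a replication-dependent H4 gene described later:
H2AX (chr11:118965606-118965635, minus strand): tgccaccacaaaGGCCCTTTTAAGGGCCac
H4C3 (chr6:26104533-26104562, plus strand): aaaaaacccaaaGGCCCTTTTCAGGGCCgc

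The genes differed widely in abundance. In cells without 4sU, H3-3B was at 604, 723 and 710 CPM in replicates 1, 2 and 3, and H2AZ1 was at 457, 682 and 595 CPM. MACROH2A1 was at 255, 207 and 210 CPM, H2AX at 19.3, 14.7 and 15.1 CPM, and H1-10 at 9.84, 14.1 and 16.4 CPM. H3-3A, the second H3.3 gene, had only 7.46, 2.55 and 3.42 CPM, from 151, 57 and 65 reads. H3-3A has processed copies elsewhere in the genome, and how reads shared with such copies were assigned is not given in the sources used here, so that its level is uncertain. Divided by the interval length, the mean level without 4sU was highest for H2AZ1 (1529 ± 300.0 CPM per kb, SD, n = 3). It was followed by MACROH2A1 (375 ± 44.7), H3-3B (314 ± 30.2), H2AZ2 (88.1 ± 30.2), H1-10 (27.3 ± 6.78), H2AX (15.0 ± 2.32) and H3-3A (8.51 ± 4.99), all in CPM per kb. In this order, the libraries of neighbouring genes did not overlap, except for H2AX (from 13.5 to 17.7 CPM per kb) and H3-3A (from 4.84 to 14.2 CPM per kb). The scaling by length favours short intervals, although each mRNA is read at its 3′ end. Per interval, H3-3B was above both H2AZ1 and MACROH2A1 in every library. For H2AX, any mRNA that ends at its stem-loop without a poly(A) tail would be missed, so its level is that of the polyadenylated form.

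**Figure D1:**
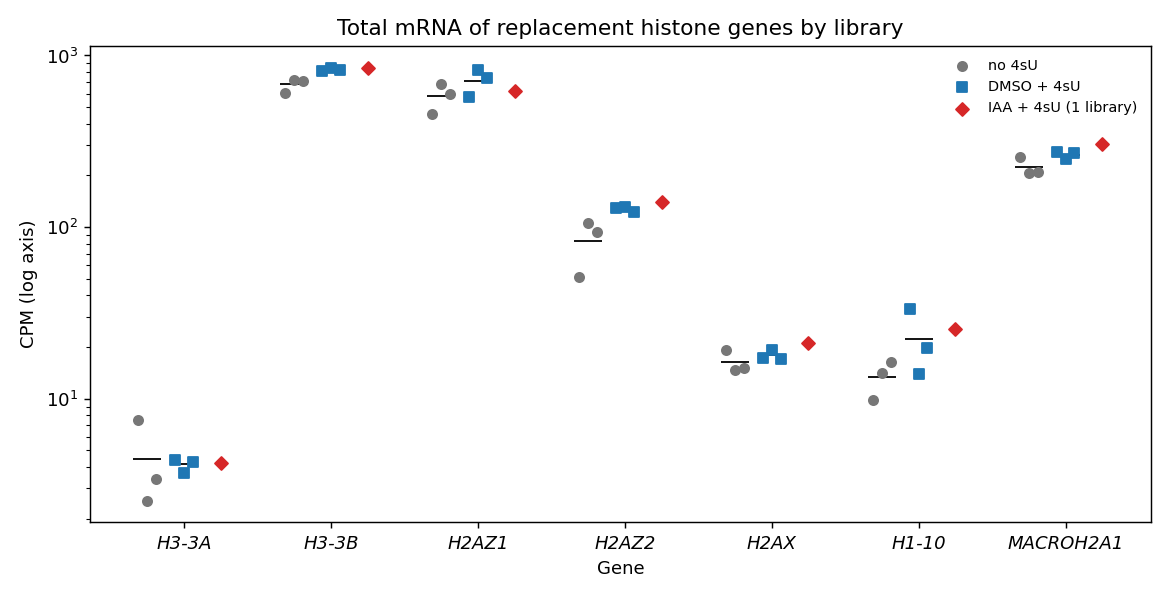
CPM of each replacement histone gene (log axis) in every library, with points for libraries (circles without 4sU, squares with DMSO and 4sU, diamonds with IAA and 4sU) and horizontal bars for the mean of 3 libraries. H3-3B and H2AZ1 lie between 457 and 850 CPM, and H3-3A lies below 10 CPM in every library.

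H2AZ2 was read in several intervals. An interval of 946 bases held 51.1, 105 and 94.0 CPM without 4sU and 129, 130 and 122 CPM with DMSO and 4sU. A second interval of 890 bases held nearly the same values (50.3, 103 and 93.0 CPM without 4sU), so that the sum over intervals used in the fits counts most H2AZ2 reads more than once. The values of H2AZ2 given here are those of the 946-base interval unless a fit is named. The remaining interval of 3258 bases belongs to another transcript form and had 8.90, 9.96 and 13.4 CPM without 4sU. Its conversion rate without 4sU was 0.490%, 0.0228% and 0.483%, and with DMSO and 4sU it was 0.195%, 0.451% and 0.310%, so that this interval showed no separation of the groups.

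The conversion rate rose with 4sU for H1-10, H3-3B and H2AZ1, whereas H2AZ2, H2AX and MACROH2A1 did not pass the test, and H3-3A had too few reads to be tested (fewer than 200 on average). Thus 3 of the 6 genes tested were called, in limma on log2(rate + 0.0005) with a Benjamini-Hochberg adjusted p under 0.05, against 64.7% of all 7364 genes. The median log2 change was 0.89 over these 6 genes and 1.14 over all genes tested. A lower rate with 4sU was called for 0.0543% of all genes and for 0 of the 6.

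The strongest labelling was that of the linker histone gene H1-10. Its conversion rate was 0.0328%, 0.0736% and 0.0375% in the libraries without 4sU, and 0.727%, 0.329% and 0.681% with DMSO and 4sU. All labelled libraries were above all unlabelled ones, and replicate 2 was the lowest of the labelled ones. The mean was 0.579% ± 0.218 (SD, n = 3), higher than in 89.4% of the genes tested. The log2 change was 2.64 (standard error 0.36, adjusted p = 0.0012 from limma). These rates rest on 333 to 708 reads per labelled library.

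H3-3B, with most of the H3.3 reads as counted, was labelled at 0.327%, 0.227% and 0.240%, against 0.0550%, 0.0632% and 0.0653% without 4sU. The groups did not overlap, and replicate 1 was the highest of the labelled libraries. The mean of 0.265% ± 0.0543 (SD, n = 3) lay above 63.3% of the genes tested, and the log2 change was 1.49 (standard error 0.25, adjusted p = 0.0023 from limma). H3-3B thus joined a high level, with 16513 to 20171 reads per labelled library, with a conversion rate 4.33 times that of the unlabelled cells. The highest labelled library of H3-3B (0.327%) lay just below the lowest of H1-10 (0.329%).

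H2AZ1 was at 0.181%, 0.115% and 0.102% with DMSO and 4sU and at 0.0495%, 0.0474% and 0.0618% without 4sU. Its labelled libraries were all above the unlabelled ones, and the log2 change of 0.80 (standard error 0.25) passed the threshold (adjusted p = 0.023 from limma). Without no 4sU replicate 1 or 2 the change stayed at 0.78 and 0.77, with an adjusted p of 0.066 and 0.072 from limma on fewer libraries. The lowest change with 1 library left out was 0.62, without DMSO replicate 1, and passed the threshold (adjusted p = 0.049 from limma). The mean of 0.132% ± 0.0423 (SD, n = 3) was above only 21.9% of the genes tested.

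H2AZ2 had a lower rate than H2AZ1 in each of the 3 DMSO libraries with 4sU. It was at 0.111%, 0.0745% and 0.0894% with DMSO and 4sU, and at 0.0397%, 0.0516% and 0.0602% without. The groups did not overlap, but the log2 change over its intervals was 0.43 (standard error 0.23, adjusted p = 0.12 from limma).

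MACROH2A1 had the lowest mean labelled rate of the 6 genes tested, despite 5450 to 5962 reads per labelled library. The rates were 0.0866%, 0.0762% and 0.0811% with DMSO and 4sU and 0.0642%, 0.0513% and 0.0538% without. The labelled libraries all lay above the unlabelled ones, yet the mean of 0.0813% ± 0.0052 (SD, n = 3) was only 1.44 times the unlabelled mean and above 4.47% of the genes tested. The log2 change of 0.30 (standard error 0.22) did not pass the test (adjusted p = 0.24 from limma).

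H2AX was the one tested gene whose groups overlapped. Its labelled rates were 0.222%, 0.0432% and 0.242%, so that replicate 2 lay within the unlabelled range of 0.0345% to 0.0599%. The log2 change was 0.98 (standard error 0.44, adjusted p = 0.083 from limma). Without DMSO replicate 2 the change was 1.51 and passed the threshold (adjusted p = 0.0046). The gene had 343 to 463 reads per labelled library, and replicate 2 had the most of them. Over the 6 genes tested, the labelled libraries were all above the unlabelled ones in 5, against 72.0% of all genes.

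**Figure D2:**
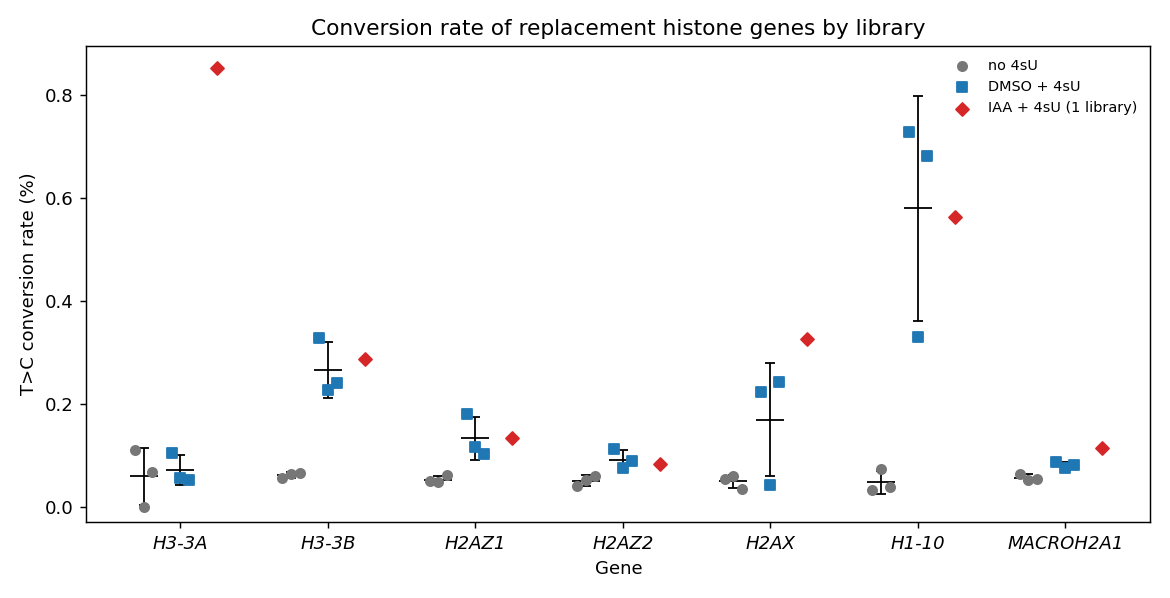
T>C conversion rate in percent for each gene and library, with points for libraries and bars for the mean ± SD of 3 libraries. H1-10 stands highest with DMSO and 4sU (0.329% to 0.727%), MACROH2A1 lies between 0.0762% and 0.0866%, and DMSO replicate 2 of H2AX lies among the unlabelled libraries. Diamonds mark the IAA library, which is highest for H3-3A (0.852% from 85 reads).

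H3-3A was read at 0.110%, 0 and 0.0673% without 4sU and at 0.105%, 0.0564% and 0.0521% with DMSO and 4sU, so that the groups overlapped. Without the minimum of reads its log2 change was 0.28 (standard error 0.50, adjusted p = 0.64 from limma). These values rest on 86 to 94 reads per DMSO library with 4sU.

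Within the H3.3 pair, the rate of H3-3B exceeded that of H3-3A by 0.222, 0.171 and 0.188 percentage points in DMSO replicates 1, 2 and 3. Without 4sU the difference was -0.0551, 0.0632 and -0.0020 points. Within the H2A.Z pair, the rate of H2AZ2, averaged over its intervals, minus that of H2AZ1 was -0.0649, -0.0205 and -0.0010 points with DMSO and 4sU. Without 4sU it was 0.0144, 0.0012 and 0.0211 points. The average includes the 3258-base interval, at 0.490%, 0.0228% and 0.483% without 4sU. In the 946-base interval alone, H2AZ2 was below H2AZ1 in unlabelled replicates 1 (0.0397% against 0.0495%) and 3 (0.0602% against 0.0618%), and above it in replicate 2. In the IAA library the differences were -0.564 points for H3.3, where H3-3A had 85 reads, and -0.0483 points for H2A.Z. Each pair kept its sign in the 3 DMSO libraries with 4sU, and the H3.3 difference had the opposite sign in the IAA library. For the DMSO libraries, an exact sign-flip permutation test over 3 libraries could not go below p = 0.25, the value that both pairs reached (two-sided, adjusted p = 0.25 over 2 pairs).

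**Figure D3:**
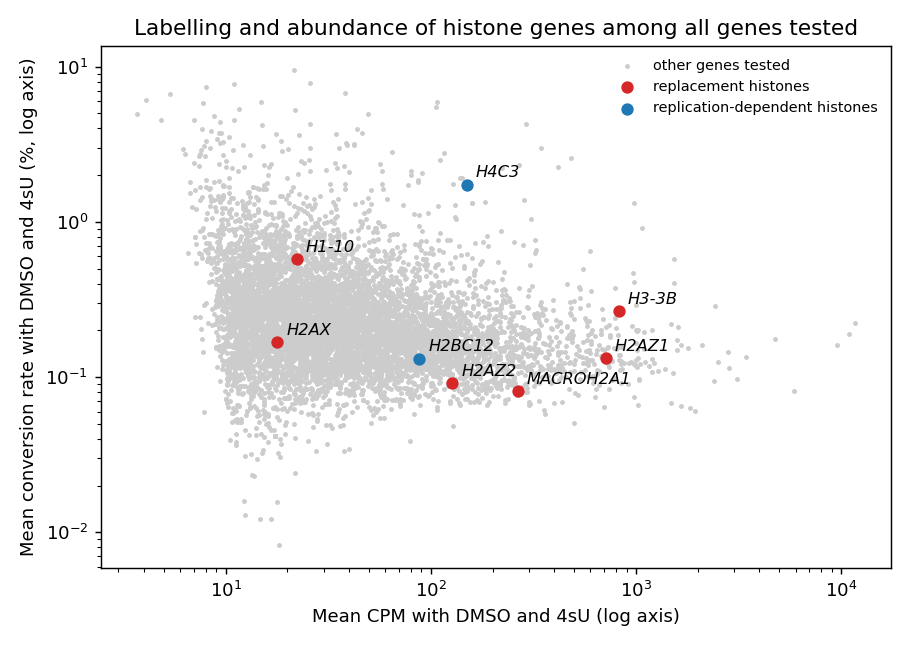
Mean conversion rate against mean CPM (both log axes) in the 3 libraries with DMSO and 4sU, for all genes tested (grey), the replacement histones with at least 200 reads (red) and H4C3 and H2BC12 (blue). H4C3 lies at 1.74%, H1-10 at 0.579% and MACROH2A1 at 0.0813%.

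Total mRNA of the variants did not pass the test between DMSO with 4sU and no 4sU. Of the 7 genes, 0 were called in limma on log2(CPM + 1) (1 at an unadjusted p under 0.05, H2AZ2), and edgeR and DESeq2 on recovered reads also called 0. Over all 11496 genes, 1.61% were called lower and 0% higher. The log2 change was above 0 in 6 of the 7 genes and in 56.5% of all genes, and its median was 0.25, against 0.04 over all genes tested. The size of some of these changes depended on no 4sU replicate 1. Without it, the log2 change was 0.07 for H3-3B, 0.02 for H2AZ1, 0.23 for H2AZ2 and 0.31 for H1-10. With all libraries these were 0.25, 0.27, 0.62 and 0.59. MACROH2A1 stayed at 0.21 without that library, whereas H2AX went from 0.10 to 0.13 and H3-3A from -0.02 to 0.27. For H1-10 the change was also lower, at 0.27, without DMSO replicate 1. In these bulk samples, a change in the share of cells that hold an mRNA and a change in its amount per cell cannot be told apart. As CPM are scaled to a common library size, a change in all mRNA together would not be seen.

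For H2AZ2 the log2 change in total mRNA with all libraries was 0.62 (standard error 0.26, adjusted p = 0.45 from limma). The libraries did not overlap in the 946-base interval, with 51.1, 105 and 94.0 CPM without 4sU and 122 to 130 CPM with DMSO and 4sU. H3-3B, at 809, 840 and 822 CPM with DMSO and 4sU, was also above its 3 unlabelled libraries, with a log2 change of 0.25 (standard error 0.16, adjusted p = 0.67 from limma). Such a separation upwards was seen in 2 of the 7 genes and in 10.3% of all genes tested.

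In H1-10 the labelled libraries had 33.3, 13.9 and 19.7 CPM, and replicate 2 was within the unlabelled range. Its log2 change was 0.59 (standard error 0.31, adjusted p = 0.58 from limma). H2AZ1 was at 572, 819 and 743 CPM with DMSO and 4sU, and replicate 1 was the lowest library within each group. H2AX (17.3, 19.3 and 17.1 CPM) and MACROH2A1 (274, 248 and 271 CPM) also overlapped with their unlabelled libraries, with log2 changes of 0.10 and 0.21. H3-3A changed by -0.02 on the log2 scale, a value that turned to 0.27 without no 4sU replicate 1, 0.04 without DMSO replicate 2 and 0.0067 with library totals as deposited, so that its direction was not settled. Replicate numbers paired the libraries in total mRNA, and with the replicate number as a block 0 of the 7 genes passed as well.

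The balance between the H2A.Z genes was followed as the share of H2AZ2 in the reads of both. In the interval with most reads, it was 10.0%, 13.4% and 13.6% without 4sU and 18.4%, 13.7% and 14.1% with DMSO and 4sU. The highest unlabelled and lowest labelled libraries were nearly equal. The difference was 3.07 percentage points (p = 0.10 in an exact permutation test, two-sided, where 3 against 3 cannot go lower, and adjusted p = 0.20 over 2 shares). With all intervals summed, which counts most H2AZ2 reads more than once, the shares overlapped. The difference was then 4.71 points (exact permutation test, p = 0.20, adjusted p = 0.40). Replicate numbers pair the libraries in total mRNA. Within them, the share in the interval with most reads was higher with 4sU in 3 of 3 pairs, by 8.37, 0.370 and 0.457 points in replicates 1, 2 and 3. The summed share was higher by 12.7, 0.830 and 0.569 points. In both, nearly all of the difference lay in replicate 1 (exact sign-flip permutation test, p = 0.25 for each, the smallest that 3 pairs allow). In the IAA library the share was 18.4% in the interval with most reads, close to that of DMSO replicate 1. H3-3B made up 98.8% to 99.6% of the H3.3 reads in every library, with a difference of 0.184 points between the groups (exact permutation test, p = 0.90, adjusted p = 0.90). This difference was -0.0846 points without no 4sU replicate 1. The H3.3 share rests on 57 to 151 reads of H3-3A per library. As the level of H3-3A is uncertain because of its processed copies, so is this share.

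**Figure D4:**
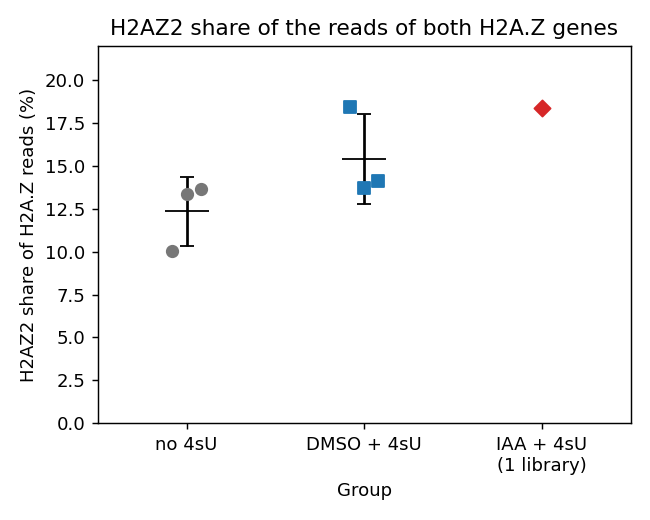
Share of H2AZ2 in the reads of H2AZ1 and H2AZ2, in percent and for the interval with most reads, with points for libraries and bars for the mean ± SD of 3 libraries. Replicate 1 holds the lowest unlabelled value (10.0%) and the highest labelled one (18.4%).

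The IAA library addressed whether acute loss of JUN changed the variants. In total mRNA, 0 of the 7 genes lay 1 log2 unit or more from the mean of the DMSO libraries with 4sU and outside their range, against 0.202% of 11403 genes. Differences are in log2(CPM + 1) with TMM library sizes. MACROH2A1 was at 306 CPM (95% exact Poisson interval 299 to 314, counting error only) and H2AX at 21.2 CPM (19.3 to 23.4), and they were higher than the DMSO mean by 0.13 and 0.16. H2AZ2 was at 141 CPM and higher by 0.04. These 3 values lay above all DMSO libraries, as did those of 20.7% of all genes. H3-3B was at 850 CPM, with a difference of -0.04 that lay below all 3 DMSO libraries but turned to 0.05 with library totals as deposited. Thus 4 of the 7 genes were outside the range of the DMSO libraries, against 41.4% of all genes. H2AZ1 was at 625 CPM, H1-10 at 25.5 CPM and H3-3A at 4.24 CPM, with differences of -0.26, 0.19 and -0.04, within that range. With 1 DMSO library left out, the difference ranged from -0.41 to -0.15 for H2AZ1 and from -0.09, without DMSO replicate 2, to 0.51 for H1-10.

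In the conversion rate, 0 of 6 genes passed the same rule, against 9.88% of 7361 genes. With library medians subtracted, the IAA rates of H3-3B (0.288%), H2AZ1 (0.134%) and H1-10 (0.561%) lay within the range of the DMSO libraries, with log2 differences of -0.01, -0.09 and -0.10. H2AX was at 0.327%, above every DMSO library, with a difference of 0.82, but the DMSO libraries themselves had an SD of 0.86 on this scale. This difference was on either side of the limit of 1, with 0.34 without DMSO replicate 2, 1.17 without DMSO replicate 3, 1.05 with a pseudocount of 0.0001 and 1.28 for the rate multiplied by CPM. MACROH2A1 was at 0.114% and 0.19 higher, above the 3 DMSO libraries. These 2 genes of 6 were above the range, as were 23.6% of all genes. H2AZ2 was at 0.0829% and 0.31 lower over its intervals, below all 3, and its difference ranged from -0.68 with the plain mean of intervals to -0.17 with a pseudocount of 0.002. An IAA rate outside the DMSO range was thus found in 3 of 6 genes, and in 49.4% of all genes. The IAA rates of all 7 genes, among them H3-3A with 85 reads, were above each of their unlabelled libraries. The share of all genes in which this held was not counted, so that this does not set the 7 genes apart. The median rate over all genes tested was likewise higher in the IAA library, at 0.223%, than without 4sU, at 0.0576% to 0.0599%.

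H3-3A had the highest IAA rate of the 7 genes, 0.852%, against 0.0521% to 0.105% in the DMSO libraries with 4sU. The gene was below the minimum of reads, with 85 reads in the IAA library. Without that minimum its log2 difference was 2.76 and lay outside the DMSO range. In that setting, 2429 of 11762 genes lay outside this range and at least 1 log2 unit from the DMSO mean, as H3-3A did.

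**Figure D5:**
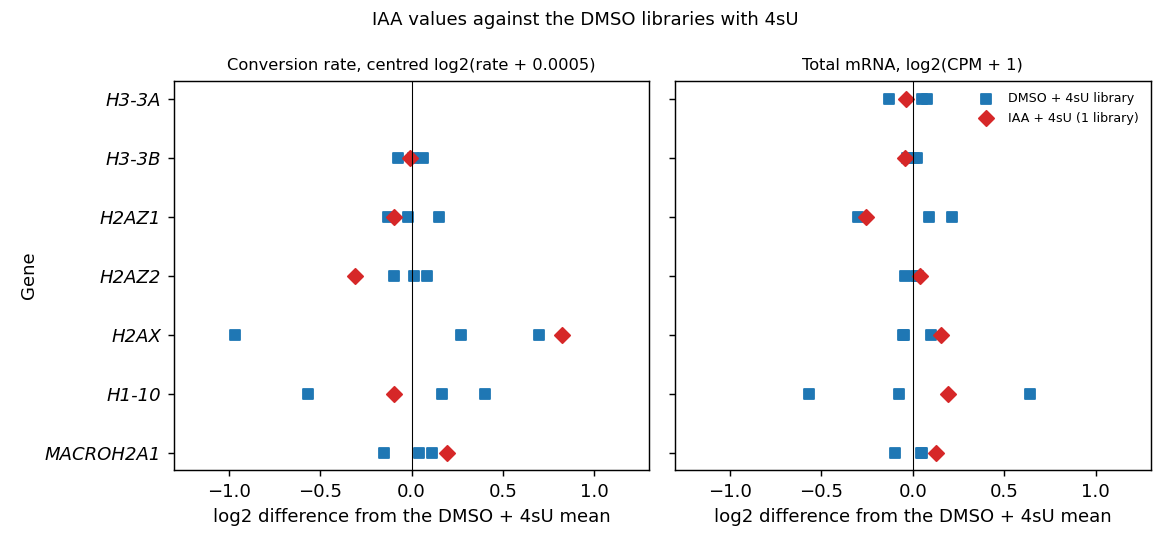
Log2 difference of each library from the mean of the DMSO libraries with 4sU, for the centred conversion rate (left) and for total mRNA (right), with squares for DMSO libraries and diamonds for the IAA library. The IAA values of H3-3B, H2AZ1 and H1-10 in the rate lie among the DMSO libraries, whereas H2AX is 0.82 higher and its DMSO libraries spread widely. H3-3A is shown for total mRNA only, since it was below the minimum of reads for rates.

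Over the 7 libraries, the genes whose log2(CPM + 1) followed each variant most closely were STRAP for H3-3B (Pearson r = 0.995), TAX1BP3 for H3-3A (0.995), GTF2H5 for H2AZ1 (0.995), CHCHD2 for H2AZ2 (0.998), AGFG1 for H2AX (0.956), ARHGAP31 for H1-10 (0.991) and NIPSNAP1 for MACROH2A1 (0.970). Each is the highest value among 7362 genes with at least 200 reads, and libraries of one group and one replicate number share part of this pattern.

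Replication-dependent histone genes gave the contrast to the variants. Of 69 such genes in the table, 61 stayed below 1 CPM in every library and 16 had no read in any library, which allows up to 3 reads, or 0.158 CPM in the library with the fewest reads. Only H4C3 and H2BC12 reached 10 CPM in every library. H4C3, which encodes histone H4 and whose stem-loop is shown above, was at 172, 90.3 and 162 CPM without 4sU and at 206, 81.0 and 163 CPM with DMSO and 4sU. Replicate 2 was thus the lowest in both groups. Its conversion rate rose from 0.0319%, 0.0078% and 0.0265% to 1.75%, 1.86% and 1.61% (log2 change 4.65, standard error 0.26, adjusted p = 2.3e-05 from limma), and every labelled library was above those of every variant tested. H2BC12, an H2B gene, was labelled at 0.132% ± 0.0207 (SD, n = 3), a level near that of H2AZ1 (log2 change 0.74, standard error 0.23, adjusted p = 0.024 from limma). The counted interval of H2BC12 had 389 bases, against an annotated 3′ UTR of 57 bases that also holds a stem-loop. For H4C3 these lengths were 81 and 78 bases. Whether the reads of H4C3 and H2BC12 come from polyadenylated forms was not tested.

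In the lists of genes that handle the variants, calls of a higher rate with 4sU are to be read against the 64.7% of all genes that were called. The share of all genes with a change above 0 was not counted. As the median change over all genes tested was 1.14, counts of changes above 0 do not set a list apart. Of the H3.3 and H3 chaperones, 7 of the 8 tested were called (median log2 change 1.52, against 1.14 over all genes tested), the change was above 0 in 8, and 0 of 12 passed in total mRNA. DAXX (0.624% ± 0.230, SD, n = 3), HJURP, the chaperone of CENP-A (0.526% ± 0.126), and ASF1A (0.414% ± 0.0367) had the highest rates with DMSO and 4sU. Of the genes of H2A.Z exchange and H2A chaperones, 4 of 15 were called (median 0.67), the change was above 0 in 14, and 0 of 18 passed in total mRNA. Here INO80, the ATPase of the INO80 remodelling complex (0.568% ± 0.296), VPS72, a subunit of SRCAP (0.187% ± 0.104), and SUPT16H, a subunit of FACT (0.174% ± 0.0354), were highest. INO80 and SUPT16H passed the test (adjusted p = 0.0045 and 0.025 from limma), and VPS72 did not (adjusted p = 0.11). Of the genes for histone mRNA processing and transcription, 6 of 9 were called (median 1.21), the change was above 0 in 9, and 0 of 13 passed in total mRNA. The highest were CSTF2T (0.469% ± 0.174), ERI1 (0.279% ± 0.0767) and CSTF2 (0.274% ± 0.0719). Of the genes that phosphorylate or bind H2AX, 7 of 10 were called (median 1.11), the change was above 0 in 9, and 0 of 12 passed in total mRNA. The highest were RNF168 (0.682% ± 0.469) and RNF8 (0.292% ± 0.174), ubiquitin ligases of the response to DNA breaks, and the kinase ATR (0.237% ± 0.110). The rates of INO80 and RNF8 are those of the interval with most reads, which had fewer than 200 reads on average, and their tests used all intervals.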

How the data were processed

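SLAM-Seq libraries (QuantSeq 3′ mRNA-Seq) were processed by the authors with a Nextflow SLAM-Seq pipeline, per the study's methods, on hg19, per the submitters' processing notes. Pipeline version and filters are not given in the sources used here. The deposited table holds 56868 rows, with a conversion rate as a fraction and, as a signal, reads scaled to library size that the authors call CPM. All non-zero CPM (100%) were whole multiples of 1 read, within 0.01 reads, which gave reads and library totals.

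RefSeq identifiers were matched to symbols of GRCh38.p14 in 97.7% of rows, and the table was used for names only. Rows of equal length and values were used once. Where a gene had several intervals (19.7%), rates were averaged with weights from mean CPM and reads were summed. The coverage of T positions is unknown, so the counting error of the rates could not be computed and is not given. Poisson intervals cover counting error only.

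limma (3.58.1, R 4.3.3; trend, robust) compared 3 libraries with 3, on log2(rate + 0.0005) for genes with at least 200 reads on average and a non-zero rate in 3 or more of the 6 libraries, and on log2(CPM + 1) with TMM library sizes from a mean of 1 CPM. edgeR (4.0.16) and DESeq2 (1.42.0) on recovered reads were alternatives. On simulated data, the test of total mRNA recovered 100% of 200 genes changed 3-fold among 11451, with 10 false calls in 210, and the test of rates 63% of 200 genes changed 4-fold among 7315, with 4 false calls in 130. A requirement on recovery set beforehand was not met by the test of rates and was dropped for it, so that rates without a call may hold missed changes. Replicate numbers paired the libraries in total mRNA, where the correlations of deviations from the group means were 0.39, 0.31 and 0.37 over 11496 genes, and not in the rates (0.0035, -0.0030 and 0.0064). The alternatives cover pseudocounts, filters, scaling, intervals, the replicate block and each library left out.

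The genes and lists were chosen with earlier results of these data known. Named genes are the 7 variants, of each list those past the threshold in total mRNA (none) and the 3 with the highest labelled rate, and the most similar gene for each variant. The stem-loop pattern was chosen after H2AX and H4C3 sequences were seen. Permutation tests were computed with numpy 2.4.6 and Poisson intervals with scipy 1.17.1, and tables were handled with numpy and pandas 2.3.3 in Python 3.11.15.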

Additional observations from a re-analysis of the deposited data

How the results depend on the processing

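Among the variants, H2AZ1 lost its call in the conversion rate without no 4sU replicate 1 or 2 while the log2 change stayed at 0.78 and 0.77 (0.80 with all libraries), H2AX gained one without DMSO replicate 2, and the total mRNA of H3-3A changed sign (0.0067, 0.27 and 0.04 in log2 with library totals, without no 4sU replicate 1 and without DMSO replicate 2, from -0.30 to 0.27 with 1 library left out). The replicate block left 3 of 6 variants called in the rate and 0 of 7 in total mRNA, and gave 4481 genes in the rate and 198 in total mRNA against 4769 and 185. The rates are not paired by number. The block for the shares of paralogues was added after the data were seen, and it gave the same differences with p = 0.25 for H2A.Z and 1.00 for H3.3 (exact sign-flip permutation test). No paired analysis was possible for IAA because its columns hold 1 library.

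The count in total mRNA was 80 with a mean of at least 10 CPM and 400 with DESeq2, and from 58 to 320 with 1 library left out, with 320 without no 4sU replicate 1 and 58 without DMSO replicate 3. In the IAA comparison, 727 genes in the rate became 187 with a pseudocount of 0.002, 2429 with no minimum of reads and 1219 with the rate multiplied by CPM. The 23 genes in CPM became 47 and 6 with pseudocounts of 0.5 and 5, 9 from 10 CPM, and from 17 to 111 with 1 DMSO library left out, with 111 without DMSO replicate 1. The H3.3 share difference was -0.0846 points without no 4sU replicate 1 and up to 0.351 points with another library left out. Fewer genes are tested with a higher filter, and the cause of the other moves was not tested. H1-10 and H2AX, with 199 to 708 reads per library, have the least precise rates of those tested.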

Other observations

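Further variant histone genes were measured at low levels. The conversion rate of H2AJ was 1.10% ± 0.662 (SD, n = 3) with DMSO and 4sU and 0.111% ± 0.0510 without. CENPA, the centromeric H3 variant, had 8.28 ± 0.344 CPM without 4sU and 6.60 ± 1.63 CPM with DMSO and 4sU, and MACROH2A2 had 3.89 ± 1.42 and 5.13 ± 0.783 CPM (SD, n = 3). These 3 genes had fewer than 200 reads on average, so that their rates were not tested.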
